A study of Arabidopsis thaliana with 24 samples.

Results

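Seedlings of the Arabidopsis thaliana mutant card1-1 were compared with WT seedlings after both had been given DMBQ, over all genes of a table of RNA sequencing read counts. The comparison used 8 of the 24 libraries of the study, 4 for each genotype, chosen by their sample labels alone, and it concerns the transcript levels reached with DMBQ and not the response to it. All 8 came from whole seedlings of the Col-0 ecotype, grown in liquid medium, 7 days old and exposed to 5 µM DMBQ (2,6-dimethoxy-1,4-benzoquinone) for 10 min. WT is a line that expresses aequorin, a protein that emits light when it binds calcium and serves as a calcium reporter. card1-1 is 1 mutant allele, and its lesion is not described in the sources used here. The other groups, used as context, were WT and card1-1 seedlings given the solvent DMSO for 10 min and seedlings of a second allele, card1-2, given DMBQ, with 4 libraries each. The labels attach aequorin to WT alone and do not mention it for card1-1, and the promoter that drives it is not given in the sources used here. Whether the 4 replicates of a group were separate cultures is not stated, so the p-values cover the spread among these libraries, which may be technical.

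CARD1, also called HPCA1, is a leucine-rich repeat receptor kinase at the plasma membrane through which quinones and extracellular hydrogen peroxide are sensed, and its activation leads to an influx of calcium into the cytosol. Quinones such as DMBQ are released from plant cell walls and are host signals for parasitic plants. In Arabidopsis, early signalling of this kind shares components with pattern-triggered immunity. There, receptor kinases and their co-receptors activate calcium channels and mitogen-activated protein (MAP) kinases within minutes, and WRKY, ethylene response factor (ERF), MYB and zinc finger transcription factors rise shortly afterwards.

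With DMBQ, card1-1 had lower transcript levels than WT of genes known from immune and calcium signalling, among them the co-receptor kinase SOBIR1, the MAP kinase phosphatase AP2C1, the transporter PEN3, the calmodulin-binding protein CAMBP25 and the transcription factor MYB15. It had higher levels of 15 genes encoded in the plastid or mitochondrial genome and of a few nuclear genes for ribosomal proteins, translation and photosynthesis. Most of the genes that differed, in both directions, did not pass in every alternative fit described below. In all, 93 of 15570 genes tested (0.597%), out of 33602 in the table, differed by the quasi-likelihood test of edgeR with Benjamini-Hochberg adjustment and a threshold of 0.05; such a gene is said here to have a call. Of these, 46 genes (0.295%) were higher and 47 (0.302%) lower in card1-1. The 47 lower genes were all nuclear, and the higher ones comprised 31 nuclear, 13 plastid and 2 mitochondrial genes. Differences of at least 2-fold were found in 28 of the lower and 19 of the higher genes, and 1756 genes had an unadjusted p under 0.05. The libraries of the 2 groups did not overlap in 46 of the lower and 45 of the higher genes, beside 7.33% of all genes tested. Lack of overlap is therefore given below as a description of genes with a call and not as a further test. RNA of whole seedlings was measured, so fewer cells of a type and less RNA per cell cannot be told apart.

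The count of 93 moved with the libraries used. It was 31 (9 higher, 22 lower) without the 2 card1-1 libraries in which over 55% of alignments were not unique, and 34 (12 higher, 22 lower) in a fit to all 24 libraries with that share as a covariate. Leaving out 1 library gave 31, 48, 32 and 38 genes without WT replicates 1 to 4 and 36, 149, 70 and 49 genes without card1-1 replicates 1 to 4. Scaling by library totals alone gave 32 higher and 69 lower genes. Whichever single library was left out, 24 genes kept their call (14 lower, 10 higher), and 10 of these also kept it under each of 20 alternatives in which they were tested: SOBIR1, FBS1, PEN3, MRL1, AT3G02840, AT4G20830 and AT5G28610 among the lower genes, and NAP57, ATCG00140 and ATCG00540 among the higher ones.

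**Figure D1:**
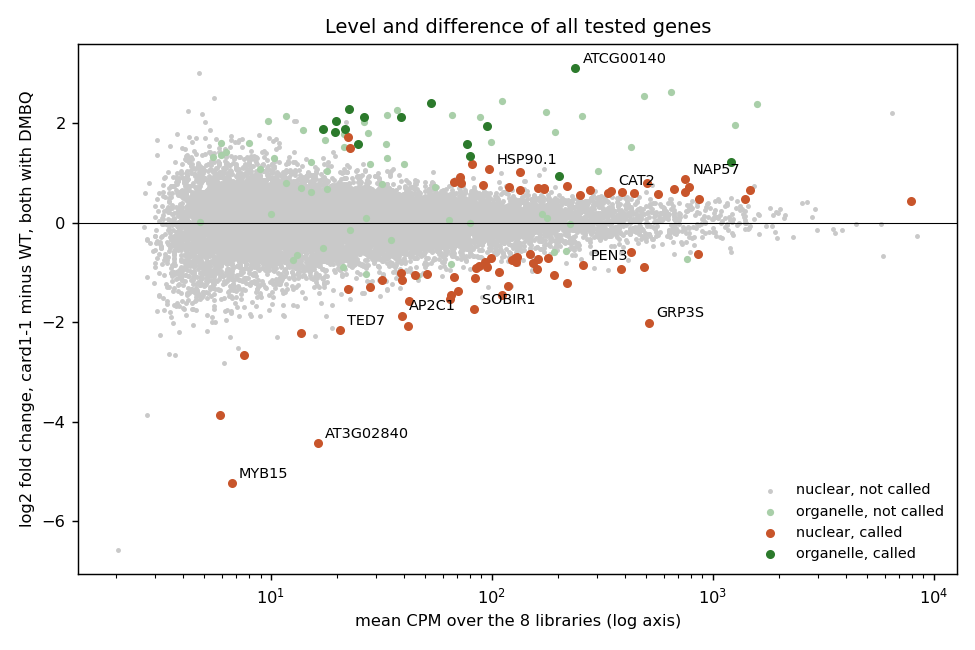
Log2 fold change of card1-1 against WT, both with DMBQ, against the mean level over the 8 libraries (log axis, in counts per 1e6 gene counts after TMM scaling, CPM), with 1 point for each of 15570 tested genes. Coloured points are the 93 genes with an adjusted p under 0.05: the organelle genes among them all lie above 0, and the lowest nuclear point among them is MYB15 at −5.23.

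The transcript of CARD1 itself (AT5G49760, chromosome 5 from 20216332 to 20221382, TAIR10.1) was measured at 85.7, 93.1, 77.2 and 77.3 CPM in the WT libraries and at 92.8, 57.6, 57.1 and 55.1 CPM in those of card1-1. Replicate 1 of card1-1 lay within the WT range and the other 3 lay below it. The difference did not pass the test (log2 fold change −0.33, SE 0.20, adjusted p = 0.570, at most 0.815 under 20 alternatives). The genotype label cannot be checked in this way, since a lesion in the coding sequence need not alter how much transcript is counted.

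The 2 sets of libraries differed in more than the genotype. Gene counts ran from 2453832 to 3567209 in WT and from 2328009 to 2736743 in card1-1. Alignments without a unique place in the genome made up 33.4% ± 5.65 (SD, n = 4) of the records in WT and 55.9% ± 8.06 in card1-1, with no overlap (exact permutation test, two-sided, p = 0.0286, the smallest this design allows, and 0.0667 adjusted over 7 library values). Mitochondrial genes took 0.114% ± 0.0641 of gene counts in WT and 0.483% ± 0.290 in card1-1 (p = 0.0286 in the same exact test, adjusted 0.0667), and plastid genes 0.523% ± 0.214 and 1.04% ± 0.387 (p = 0.0571, adjusted 0.1). The biological coefficient of variation, the spread between replicates beyond counting error, was 22.5% in WT and 40.2% in card1-1. Among nuclear genes the median log2 fold change went from 0.14 in the fifth of genes with the shortest exonic length to −0.10 in the fifth with the longest. The median exonic length was 1001 bases in the 31 higher nuclear genes, 1813 in the 47 lower ones and 1848.5 in the nuclear genes tested. The part of these library differences in the gene results was not tested beyond the alternatives named. All ± values are SDs of 4 libraries.

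**Figure D2:**
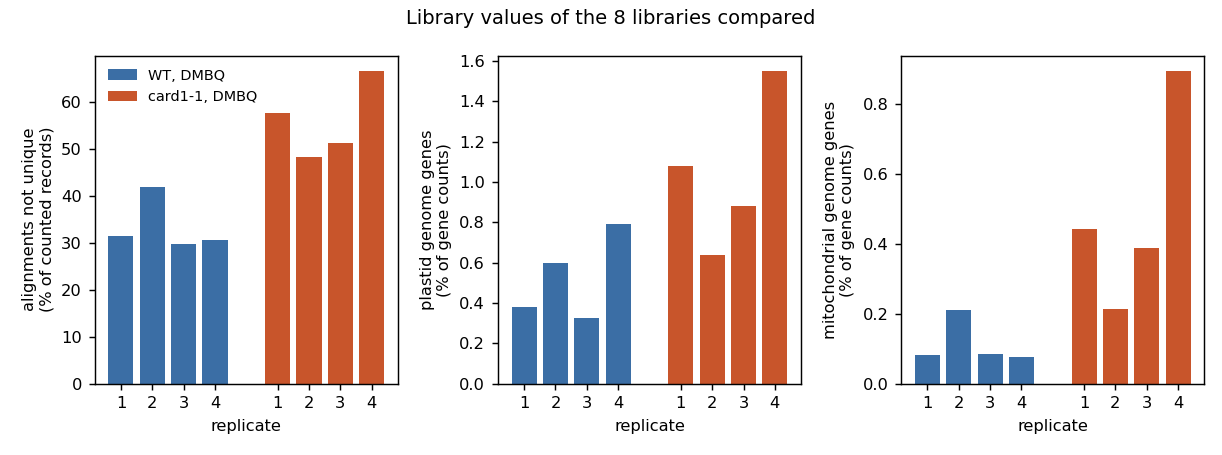
Share of alignments not unique (left, % of counted records), of plastid genes (middle, % of gene counts) and of mitochondrial genes (right, % of gene counts) in each of the 8 libraries, WT in blue and card1-1 in orange. Every card1-1 library lies above every WT library in the left and right panels, with replicate 4 of card1-1 at 66.5% and 0.892%.

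Among genes of immune perception and signalling, SOBIR1 (AT2G31880, chromosome 2 from 13554870 to 13556977) had the smallest p of the nuclear genes. SOBIR1 is the co-receptor kinase with which receptor-like proteins signal. Its level was 153, 105, 114 and 144 CPM in WT and 44.2, 27.8, 37.9 and 43.2 CPM in card1-1. All 4 card1-1 libraries lay below all 4 WT libraries (log2 fold change −1.74, SE 0.20, adjusted p = 6.75e-05). AP2C1 (AT2G30020), a protein phosphatase that inactivates stress-responsive MAP kinases, was at 66.99, 47.8, 75.2 and 56.4 CPM in WT and at 9.94, 12.1, 27.3 and 17.6 CPM in card1-1, again without overlap (log2 fold change −1.87, SE 0.29, adjusted p = 0.00197). The call of AP2C1 held whichever library was left out and was lost without the 2 card1-1 libraries rich in alignments that were not unique (adjusted p = 0.0521). FBS1 (AT1G61340), an F-box protein induced by many stresses, was at 86.5, 105, 117 and 99.2 CPM in WT and 31.7, 41.9, 44.9 and 36.6 CPM in card1-1, and its groups were also apart (log2 fold change −1.38, SE 0.19, adjusted p = 4.40e-04).

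MYB15 (AT3G23250), a transcription factor that activates defence lignin genes, had the largest log2 fold change of the genes with a call. It was counted 72, 18, 49 and 28 times in the WT libraries and 1, 0, 2 and 0 times in those of card1-1, or 13.02 ± 7.597 and 0.296 ± 0.387 CPM. The ratio of the levels was 41.6 (95% counting interval 13.99 to 204), which covers counting error only (log2 fold change −5.23, SE 0.86, adjusted p = 0.00393). AT3G02840, annotated as an ARM repeat protein, was at 34.7, 36.8, 24.7 and 29.2 CPM in WT and at 2.21, 2.82, 0.408 and 0 CPM in card1-1 (log2 fold change −4.44, SE 0.53, adjusted p = 1.34e-04). Both genes were therefore almost undetected in card1-1 with DMBQ, and with DMSO both were low in WT as well, at 1.24 ± 0.464 CPM for MYB15 and 0.4799 ± 0.616 for AT3G02840. MYB15 lost its call without WT replicate 1 (adjusted p = 0.0556) and by limma voom (0.143). That call was also lost with the share not unique as a covariate (0.125) and without the 2 card1-1 libraries over 55% not unique (0.0659). The call of AT3G02840 held in every alternative.

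Genes of secretion, transport and calcium were lower by smaller factors. PEN3 (AT1G59870), a plasma membrane ABC transporter that limits entry of fungi, was at 358, 299, 287 and 394 CPM in WT and 201, 157, 178 and 199 CPM in card1-1, with the groups apart (log2 fold change −0.85, SE 0.14, adjusted p = 0.00416). EXO70B2 (AT1G07000), an exocyst subunit needed for full immune responses, was at 32.1 ± 3.71 CPM in WT and 12.6 ± 2.496 in card1-1 (log2 fold change −1.33, SE 0.29, adjusted p = 0.0384). CAMBP25 (AT2G41010), a calmodulin-binding protein of osmotic stress responses, was at 251, 213, 218 and 159 CPM in WT and 109, 93.5, 140.3 and 95.7 CPM in card1-1. Its groups did not overlap (log2 fold change −0.93, SE 0.17, adjusted p = 0.0102). ACA4, a calcium pump of the vacuole membrane, was at 182 ± 17.3 and 117 ± 8.66 CPM (log2 fold change −0.63, SE 0.14, adjusted p = 0.0452). The calls of EXO70B2, CAMBP25 and ACA4 were each lost in fits with 1 library left out, where the highest adjusted p was 0.147, 0.0682 and 0.169. Without the 2 card1-1 libraries over 55% not unique it was 0.163, 0.148 and 0.166. EXO70B2 and CAMBP25 also lost their calls with the share not unique as a covariate (0.205 and 0.473). With offsets for gene length and GC content ACA4 lost its call (0.166), and PEN3, EXO70B2 and CAMBP25 kept theirs.

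Further genes lower in card1-1 encode membrane and signalling proteins. PUP14 (AT1G19770), a purine permease that imports cytokinin, was at 182, 156, 171 and 165 CPM in WT and 62.96, 52.4, 75.4 and 87.7 CPM in card1-1 (log2 fold change −1.27, SE 0.17, adjusted p = 4.05e-04). This call was lost in the fit to all 24 libraries, without and with the share not unique as a covariate (adjusted p = 0.0994 and 0.548). PUP18, a relative of PUP14, was at 125 ± 18.1 and 66.4 ± 12.5 CPM (adjusted p = 0.0204). The ubiquitin ligases RDUF1 and CMPG2 were at 196 ± 25.8 and 44.1 ± 3.55 CPM in WT and at 111 ± 18.15 and 19.8 ± 3.89 CPM in card1-1 (log2 fold change −0.80 and −1.15, adjusted p = 0.0197 and 0.0383). AT1G18740 and AT1G74450, both annotated with the same domain of unknown function, gave log2 fold changes of −1.46 and −1.09 (adjusted p = 0.0134 and 0.0134). MYA2, a myosin of intracellular transport, was at 61 ± 11.1 CPM in WT and 29.3 ± 5.404 in card1-1 (log2 fold change −1.05, SE 0.23, adjusted p = 0.0382), and the ubiquitin ligase UPL2 at 155 ± 26.05 and 91.2 ± 15.7 CPM (adjusted p = 0.0452). The auxin importer AUX1 was at 110.5 ± 16.3 CPM in WT and 58.7 ± 12.5 in card1-1, and the blue light receptor PHOT1 at 162 ± 19.8 and 99.5 ± 8.98 (adjusted p = 0.0324 and 0.0391). In this group of genes the call of PUP14 alone held with every library left out in turn. The highest adjusted p of the others with 1 library left out ran from 0.0689 for AT1G74450 to 0.191 for UPL2. With offsets for gene length and GC content, AUX1, PHOT1, MYA2 and UPL2 lost their calls (adjusted p = 0.0527, 0.0998, 0.0813 and 0.149). The other genes of this group kept theirs in that fit.

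MRL1 (AT4G34830), a pentatricopeptide repeat protein that stabilises a plastid transcript, was lower as well. Its level was 129.9, 156, 148 and 145 CPM in WT and 76.6, 61.3, 79.9 and 69.2 CPM in card1-1 (log2 fold change −1.001, SE 0.16, adjusted p = 0.00220), and the groups did not overlap. AT4G20830, annotated as an FAD-binding berberine family protein, was at 300.5, 239, 353 and 332 CPM in WT and 123, 100.4, 151 and 153 CPM in card1-1 (log2 fold change −1.20, SE 0.16, adjusted p = 4.05e-04). AT5G28610, annotated by similarity to an RNA helicase, was at 55.6, 66.3, 78.8 and 52.1 CPM in WT and 17.3, 23.8, 19.98 and 22.9 CPM in card1-1 (log2 fold change −1.58, SE 0.23, adjusted p = 0.00114). These 3 genes were lower in every card1-1 library than in any WT library. AT3G28580, annotated as a nucleoside triphosphate hydrolase, was at 67.8 ± 20.2 CPM in WT and 15.9 ± 4.48 in card1-1 (log2 fold change −2.07, SE 0.28, adjusted p = 4.05e-04). The glycine-rich protein gene AT5G28630 was at 96.7 ± 13.2 and 32.98 ± 14.9 CPM (log2 fold change −1.54, SE 0.26, adjusted p = 0.00574). Its call was lost with the share not unique as a covariate (adjusted p = 0.273) and without the 2 card1-1 libraries over 55% not unique (0.112). That of AT3G28580 was lost with the covariate (0.0548). AT5G52710, annotated as a copper transport family protein, and AT1G61360, an S-locus lectin kinase, were at 11.02 ± 6.03 and 13.1 ± 5.704 CPM in WT and at 0.737 ± 0.641 and 2.03 ± 0.886 CPM in card1-1 (log2 fold change −3.86 and −2.65). The calls of AT5G52710 and AT1G61360 were lost in fits with 1 library left out, at adjusted p up to 0.174 and 0.226.

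The 250 bases upstream of the annotated start are printed here for 6 of the 7 lower genes that kept their call in every alternative, because they show where in these promoters the core of the W box lies, the element that WRKY factors bind. The sequences are RefSeq's for the TAIR10.1 build, read 5′ to 3′ on the strand of the gene, and capitals mark a match to the W box core TTGAC, which reads GTCAA on the opposite strand, or to the G box CACGTG.
PEN3, chr1:22034173-22034422: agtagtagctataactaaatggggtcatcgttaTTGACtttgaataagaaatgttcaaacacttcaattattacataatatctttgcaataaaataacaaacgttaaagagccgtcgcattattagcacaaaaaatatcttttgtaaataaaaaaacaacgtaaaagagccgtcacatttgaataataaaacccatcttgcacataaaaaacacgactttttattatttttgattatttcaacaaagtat
FBS1, chr1:22628014-22628263: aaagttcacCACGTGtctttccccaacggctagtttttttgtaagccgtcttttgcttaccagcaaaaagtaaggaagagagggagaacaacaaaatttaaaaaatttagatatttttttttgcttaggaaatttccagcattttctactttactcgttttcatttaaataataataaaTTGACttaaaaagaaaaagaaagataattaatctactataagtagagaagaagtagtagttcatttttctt
AT3G02840, chr3:618148-618397: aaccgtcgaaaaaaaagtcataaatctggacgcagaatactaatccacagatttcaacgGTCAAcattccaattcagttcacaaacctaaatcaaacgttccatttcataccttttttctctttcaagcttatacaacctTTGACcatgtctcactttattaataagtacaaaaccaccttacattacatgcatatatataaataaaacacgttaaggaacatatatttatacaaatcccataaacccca
AT4G20830, chr4:11155203-11155452: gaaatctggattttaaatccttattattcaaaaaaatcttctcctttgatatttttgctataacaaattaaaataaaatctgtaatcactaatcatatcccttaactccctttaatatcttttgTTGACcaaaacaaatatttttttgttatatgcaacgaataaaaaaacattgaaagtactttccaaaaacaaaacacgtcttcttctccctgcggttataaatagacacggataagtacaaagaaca
MRL1, chr4:16606136-16606385 (minus strand): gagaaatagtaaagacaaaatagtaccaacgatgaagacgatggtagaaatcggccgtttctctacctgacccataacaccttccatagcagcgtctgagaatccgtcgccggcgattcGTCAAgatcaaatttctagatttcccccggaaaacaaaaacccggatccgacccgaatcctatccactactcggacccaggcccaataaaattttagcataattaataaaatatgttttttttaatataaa
AT5G28610, chr5:10610522-10610771: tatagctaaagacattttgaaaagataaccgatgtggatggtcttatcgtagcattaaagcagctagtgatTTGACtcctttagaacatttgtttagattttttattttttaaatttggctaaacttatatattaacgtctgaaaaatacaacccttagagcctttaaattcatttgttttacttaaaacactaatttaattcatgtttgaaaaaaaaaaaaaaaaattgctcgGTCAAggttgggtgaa

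These 6 windows each hold the W box core at least once, and those of AT3G02840 and AT5G28610 hold it at 2 positions. Over all genes with a call, 29 of the 47 lower genes (61.7%) and 10 of the 31 higher nuclear genes (32.3%) had the core in this window on either strand, beside 6823 of the 15263 protein-coding nuclear genes tested (44.7%). The G box CACGTG was found upstream of 4 lower genes (8.51%, beside 7.40% of all), the GCC box GCCGCC, an element bound by ERF proteins, upstream of 1 (2.13%, beside 1.95%), and CGCGTT, the core of the rapid stress response element, upstream of 2 (4.26%, beside 2.73%). A match describes the letters of the window and was not tested as a binding site.

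Genes of the cell wall and of the root surface were also among the lower genes. TED7 (AT5G48920), named for its role in the secondary walls of xylem vessels, was at 36.9, 32.3, 25.9 and 40.2 CPM in WT and 9.205, 9.27, 6.12 and 5.29 CPM in card1-1 (log2 fold change −2.16, SE 0.32, adjusted p = 0.00145). The groups were apart, although card1-2 with DMBQ varied widely, at 26.1 ± 19.8 CPM. PRP3 (AT3G62680), a proline-rich wall protein of root hairs, was at 76.2, 69.1, 102 and 137 CPM in WT and 30.6, 49.6, 29.4 and 29.98 CPM in card1-1 (log2 fold change −1.45, SE 0.24, adjusted p = 0.00410). Neither call held in the fit to all 24 libraries, where the log2 fold changes were −2.17 for TED7 (adjusted p = 0.0952) and −1.46 for PRP3 (0.214). With the share not unique as a covariate in that fit they were −0.72 (adjusted p = 0.696) and −0.11 (0.966). PRP3 was the 1 member with a call among 10 tested root markers, beside 0.302% of all genes lower. Of these markers, 8 had a log2 fold change below 0 (median −0.24, or 0.30 with the share not unique as a covariate). The 13 root markers in the table summed to 288 to 374 CPM in the WT libraries and 182 to 285 CPM in those of card1-1. The part of root tissue in these results was not tested.

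GRP3S (AT2G05380), a glycine-rich protein that binds a wall-associated kinase, was at 497, 669, 1033 and 1125 CPM in WT and 254, 213, 172 and 179 CPM in card1-1 (log2 fold change −2.01, SE 0.24, adjusted p = 0.00271). Its close copy GRP-3 was at 259.9 ± 94.1 and 125 ± 13.1 CPM (log2 fold change −1.05, SE 0.20, adjusted p = 0.0216). The call of GRP-3 was lost in 9 of 20 alternatives, among them limma voom (adjusted p = 0.211) and fits with 1 library left out (up to 0.0911). Reads that fit both GRP3S and GRP-3 equally would be among the alignments not unique, which were counted for neither, so both values are uncertain. With DMSO, GRP3S was at 311, 365, 1074 and 585 CPM in WT and 159, 96.2, 339 and 106 CPM in card1-1, where the groups overlapped (log2 fold change −1.74, adjusted p = 0.788). The call of GRP3S with DMBQ was lost by limma voom (adjusted p = 0.114), with the share not unique as a covariate (0.160) and without the 2 card1-1 libraries over 55% not unique (0.0846). GLP9, a germin-like protein of the cell wall, was at 48.8, 18.8, 12.7 and 10.13 CPM in WT and 7.73, 4.03, 3.26 and 3.97 CPM in card1-1 (log2 fold change −2.23, SE 0.50, adjusted p = 0.0454), and its call was lost without WT replicate 1, its highest library (adjusted p = 0.332). EARLI1, a wall-associated lipid transfer protein, had a call although its groups overlapped, at 453, 304, 649.6 and 621 CPM in WT and 233, 312, 248 and 262 CPM in card1-1 (log2 fold change −0.93, SE 0.19, adjusted p = 0.0397), and its call was lost with single libraries left out (adjusted p up to 0.124). FRO6, a ferric reductase of green tissue, was at 39.99 ± 12.4 and 16.1 ± 2.85 CPM (log2 fold change −1.30, SE 0.30, adjusted p = 0.0467). The call of FRO6 was lost in 11 of 20 alternatives, among them limma voom (adjusted p = 0.0923) and fits with 1 library left out (up to 0.188). The 47 lower genes spanned log2 fold changes from −5.23 to −0.59, the value of AT1G29470.

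**Figure D3:**
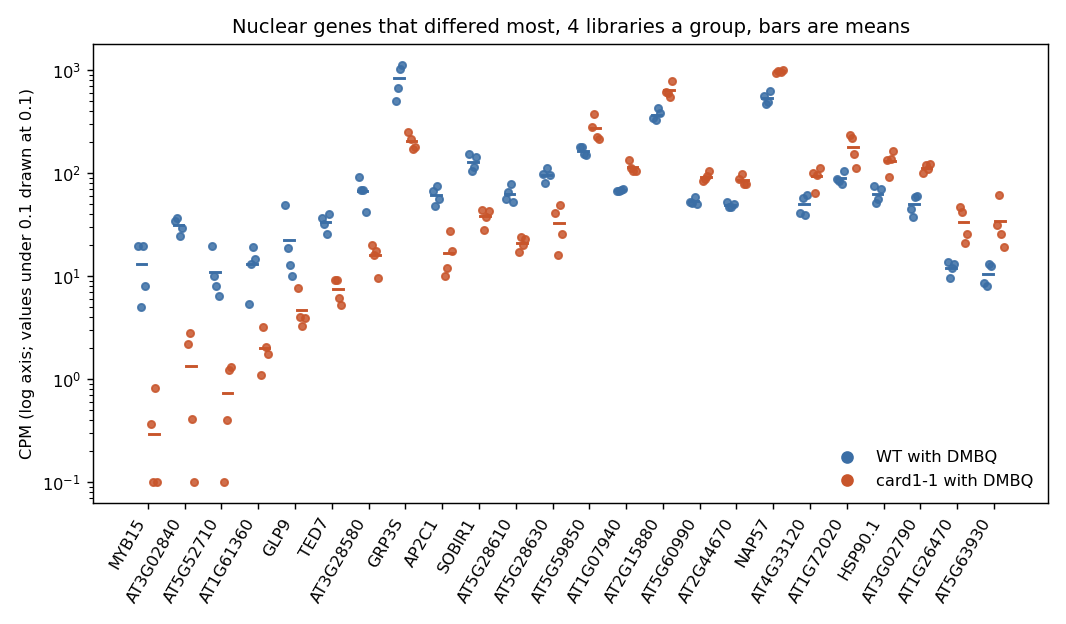
Levels (CPM, log axis) of the 12 nuclear genes with the largest negative and the 12 with the largest positive log2 fold change by the rule for named genes, each library of WT (blue) and card1-1 (orange) with DMBQ as a point and group means as bars. The points of the 2 genotypes do not overlap in any of the 24 genes, a condition of the rule, and MYB15 and AT3G02840 in card1-1 reach the bottom of the axis.

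Among the nuclear genes higher in card1-1, NAP57 (AT3G57150) had the smallest p. It encodes the pseudouridine synthase that modifies ribosomal RNA. Its level was 556, 471, 492 and 624 CPM in WT and 948, 973, 958 and 1008 CPM in card1-1, with no overlap and a narrow range in card1-1 (log2 fold change 0.87, SE 0.11, adjusted p = 4.05e-04). HSP90.1 (AT5G52640), the heat-inducible cytosolic chaperone, was at 74.6, 51.1, 56.1 and 70.6 CPM in WT and 133, 91.9, 138 and 166 CPM in card1-1 (log2 fold change 1.07, SE 0.19, adjusted p = 0.00876). In card1-2 with DMBQ, HSP90.1 was at 57.5 ± 13.9 CPM, beside 63.1 ± 11.3 CPM in WT. The call of NAP57 held in every alternative, while that of HSP90.1 was lost without card1-1 replicate 4, its highest library (adjusted p = 0.0536), and without WT replicates 2 and 3 (0.0501 and 0.0598). HSP90.1 also lost its call in the fit to all 24 libraries, without and with the share not unique as a covariate (0.212 and 0.391). The same happened without the 2 card1-1 libraries over 55% not unique (0.157).

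AT3G02790, annotated as a C2H2 zinc finger protein, was at 44.5, 37.9, 58.5 and 60.2 CPM in WT and 99.8, 121, 111 and 122 CPM in card1-1 (log2 fold change 1.19, SE 0.19, adjusted p = 0.00220). Its groups were apart by more than the spread within either, and its call was lost with the share not unique as a covariate (adjusted p = 0.535). AT5G63930, a leucine-rich repeat kinase, was at 10.6 ± 2.59 CPM in WT and 34.4 ± 18.6 in card1-1 (log2 fold change 1.72, SE 0.36, adjusted p = 0.0324). AT1G26470, annotated as a chromatin modification-like protein, was at 12.1 ± 1.804 and 33.9 ± 12.7 CPM (log2 fold change 1.49, SE 0.32, adjusted p = 0.0378), and AT1G72020 at 89.1 ± 11.1 and 179 ± 56.4 CPM (log2 fold change 1.02, SE 0.20, adjusted p = 0.0197). AT2G15880, annotated as a leucine-rich repeat protein, was at 369.6 ± 47.7 CPM in WT and 639 ± 104 in card1-1 (log2 fold change 0.80, SE 0.13, adjusted p = 0.00429), beside 479.6 ± 109 and 888 ± 627 CPM with DMSO. Its call was lost in the fit to all 24 libraries, without and with the share not unique as a covariate (adjusted p = 0.423 and 0.211). It was also lost without the 2 card1-1 libraries over 55% not unique (0.116). The rule for named genes also gave AT4G33120, a methyltransferase, AT2G44670, a gene annotated as senescence-associated, and AT5G60990, an RNA helicase, with log2 fold changes of 0.92, 0.82 and 0.80, and AT1G07940 and AT5G59850, both of translation (0.75 and 0.74). Of the 12 genes named by this rule for the higher direction, NAP57, AT3G02790 and AT2G15880 kept their call whichever library was left out, and the highest adjusted p of the others ran from 0.0598 for HSP90.1 to 0.191 for AT4G33120.

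Of 86 tested cytosolic ribosomal protein genes, 5 were higher and none lower, beside 0.295% of all genes higher, and 71 had a log2 fold change above 0 (median 0.26, beside 0.01 over all genes tested). The 5 were AT1G01100, AT2G19740, AT2G27710, AT3G02080 and AT3G59540, with log2 fold changes from 0.48 to 0.66. AT2G19740, which encodes ribosomal protein L31, was at 254, 282, 258 and 282 CPM in WT and 423, 409.6, 388 and 392 CPM in card1-1 (log2 fold change 0.59, SE 0.12, adjusted p = 0.0213). Another 4 genes with a call, AT5G59850, PGY2, AT1G52300 and AT3G11120, also carry ribosomal protein descriptions, worded in a way that the list did not include, and were picked out after their values were seen. The elongation factor genes AT1G07940 and AT5G60390 were at 68.4 ± 1.03 and 593 ± 59.3 CPM in WT and at 114 ± 14.2 and 903 ± 145 CPM in card1-1 (log2 fold change 0.75 and 0.62, adjusted p = 0.0378 and 0.0280). They are near-copies, and reads that fit both equally would be counted for neither. The ribosomal count was 0 with offsets for gene length and GC content and 0 without the 2 card1-1 libraries over 55% not unique, with medians of 0.14 and 0.28, and it ran from 0 to 7 with 1 library left out.

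Photosynthesis genes of the nucleus were slightly higher as far as single genes passed. RBCS1A, the small subunit of Rubisco, was at 6583, 7432, 6767 and 6121 CPM in WT and 9569, 8152, 10414 and 7984 CPM in card1-1 (log2 fold change 0.44, SE 0.10, adjusted p = 0.0452). PSBO1, a subunit of the oxygen-evolving complex, was at 1209.8, 1236, 1084 and 1170.0 CPM in WT and 1842, 1448, 1679.7 and 1501 CPM in card1-1 (log2 fold change 0.47, SE 0.11, adjusted p = 0.0452). Both were higher in every card1-1 library than in any WT library. They were the only members with a call among 17 genes of light harvesting and photosystems (median 0.24) and 14 of the Calvin cycle (median 0.10), beside 0.295% of all genes higher. CAT2 (AT4G35090), the main leaf catalase, which removes hydrogen peroxide from peroxisomes, was at 287, 283, 274 and 244 CPM in WT and 462, 416, 436 and 367 CPM in card1-1, without overlap (log2 fold change 0.64, SE 0.12, adjusted p = 0.0177). It was the 1 call among 9 genes of reactive oxygen enzymes, beside the same 0.295% (median −0.04, with the sign changing in 4 alternatives). All 3 calls were lost with single libraries left out, at adjusted p up to 0.162, 0.180 and 0.0851. In all, RBCS1A, PSBO1 and CAT2 lost their calls in 13, 12 and 8 of 20 alternatives. Without the 2 card1-1 libraries over 55% not unique the adjusted p was 0.166, 0.212 and 0.0989. With offsets for gene length and GC content RBCS1A and PSBO1 lost theirs (0.128 and 0.146), while CAT2 kept its call.

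Genes encoded in the organelles took a small share of the reads, and all those with a call were higher in card1-1. Of 71 tested plastid genes, of 133 in the table, 13 were higher and none lower, beside 0.295% of all genes higher, and 57 had a log2 fold change above 0 (median 1.34). Of 7 tested mitochondrial genes, of 146 in the table, 2 were higher and none lower, beside the same 0.295% (median 1.58). The plastid gene ATCG00140 was at 59.1, 53.6, 26.3 and 60.5 CPM in WT and 480.1, 352, 415 and 468 CPM in card1-1 (log2 fold change 3.104, SE 0.21, adjusted p = 1.53e-07), the largest increase with a call. ATCG00150 was at 17.4, 16.3, 16.3 and 17.9 CPM in WT and 123, 70.9, 60.4 and 102 CPM in card1-1 (log2 fold change 2.40, SE 0.24, adjusted p = 1.27e-05), with the WT libraries close together and none overlapping card1-1. The files and the reference tables used here give no names for the plastid and mitochondrial genes.

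The organelle values moved with the libraries that had the most alignments not unique. With the share not unique as a covariate over all 24 libraries, the median was −0.03 over plastid genes and −0.19 over mitochondrial genes, and 2 plastid genes, ATCG00140 and ATCG00540, kept their call. The mitochondrial ATMG01360, at 9.49, 16.03, 6.76 and 4.63 CPM in WT and 53.8, 16.9, 21.2 and 44.1 CPM in card1-1 (log2 fold change 1.88), turned to −0.38 in that fit (adjusted p = 0.821). Without the 2 card1-1 libraries over 55%, the plastid median was 0.71 with 5 calls and the mitochondrial one 1.28 with none. With 1 library left out, 7 plastid genes were called without WT replicate 1 and 29 without card1-1 replicate 2. The number of mitochondrial calls was 0 without any 1 of WT replicates 1, 3 and 4 and card1-1 replicates 1 and 4.

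Across the gene lists of defence signalling, most members had lower values in card1-1, but few passed the test. Of 19 immune output genes tested, 18 had a log2 fold change below 0 and 2 were lower with a call, PEN3 and EXO70B2 (beside 0.302% of all genes), with a median of −0.74 beside 0.01 over all genes. The ubiquitin ligase PUB22, which dampens immune signalling, was at 50.8 ± 6.199 CPM in WT and 25.4 ± 6.11 in card1-1 (log2 fold change −0.99, adjusted p = 0.0659), and the mitochondrial carrier DIC2 at 380.2 ± 41.6 and 201 ± 79.7 CPM (−0.91, adjusted p = 0.102). Of 14 immune receptors and co-receptors, SOBIR1 alone had a call, beside the same 0.302%, and 10 lay below 0 (median −0.26). BIR1, a negative regulator of SOBIR1 signalling, was at 59.1, 74.9, 60.1 and 63.1 CPM in WT and 43.4, 12.9, 26.9 and 31.7 CPM in card1-1, with no overlap but an adjusted p of 0.0564 (log2 fold change −1.15). CERK1, the chitin receptor kinase, was at 28.6 ± 3.76 and 13.6 ± 2.74 CPM (−1.07, adjusted p = 0.111). Without overlap between the libraries of the groups were 1141 of all genes tested (7.33%), with or without a call.

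Transcription factors in the ERF and DREB, WRKY and zinc finger lists had mostly lower values in card1-1, and none of them had a call. MYB15, described above, is in none of these lists. All 10 tested ERF and DREB factors lay below 0 (median −0.46), 14 of 18 WRKY factors (median −0.35) and 7 of 11 zinc finger factors (median −0.60). WRKY33, a regulator of camalexin synthesis, was at 420.4, 419.5, 507 and 428 CPM in WT and 215, 125, 365 and 211 CPM in card1-1 (log2 fold change −0.95, SE 0.25, adjusted p = 0.123). The card1-1 libraries all lay below the WT libraries but spread widely. WRKY40, a repressor of immune genes, was at 64.1 ± 28.3 and 30.7 ± 2.31 CPM (adjusted p = 0.0896), ZAT10, a zinc finger repressor, at 30.4 ± 7.11 and 11.2 ± 8.51 CPM (adjusted p = 0.145) and ERF5 at 97.1 ± 19.1 and 60.2 ± 22.7 CPM (adjusted p = 0.201). ZAT10 was counted at 4.42, 4.03, 21.6 and 14.5 CPM in card1-1 replicates 1 to 4, so replicates 1 and 2 were far below replicates 3 and 4. Replicate 2 of card1-1 also had the lowest value of the 4 for WRKY33, BIR1 and PUB22.

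In the list of calcium sensors and pumps, 18 of 20 tested members lay below 0 (median −0.43). CAMBP25 had the 1 call, beside 0.302% of all genes lower. ACA4 is not a member of this list. The calmodulin-like genes CML24 and CML23 were at 280.0 ± 24.6 and 14.1 ± 5.34 CPM in WT and at 199.6 ± 49.2 and 3.86 ± 3.37 CPM in card1-1 (adjusted p = 0.203 and 0.182). In the MAP kinase cascade AP2C1 had the 1 call among 13 members, beside the same 0.302% (median 0.04, with the sign changing in 8 of 20 alternatives). MPK3 was at 128 ± 18.95 CPM in WT and 85.5 ± 28.3 CPM in card1-1 (adjusted p = 0.269). No member had a call among 17 jasmonate genes (median −0.59), 6 of ethylene synthesis (−0.45), 8 of salicylic acid and EDS1 (−0.29), 6 of abscisic acid (−0.27) and 21 of detoxification (−0.60). JAZ1, a jasmonate repressor, was at 124 ± 26.4 CPM in WT and 69.2 ± 29.4 in card1-1 (adjusted p = 0.203). ACS6, an enzyme of ethylene synthesis, was at 28.1 ± 8.805 and 7.55 ± 5.28 CPM (adjusted p = 0.192), and the glucosyltransferase UGT73B5 at 55.9 ± 13.5 and 29.3 ± 5.501 CPM (adjusted p = 0.0896). These 5 medians, and those of the ERF and DREB, WRKY, zinc finger, calcium and immune lists, stayed below 0 in all 20 alternatives.

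**Figure D4:**
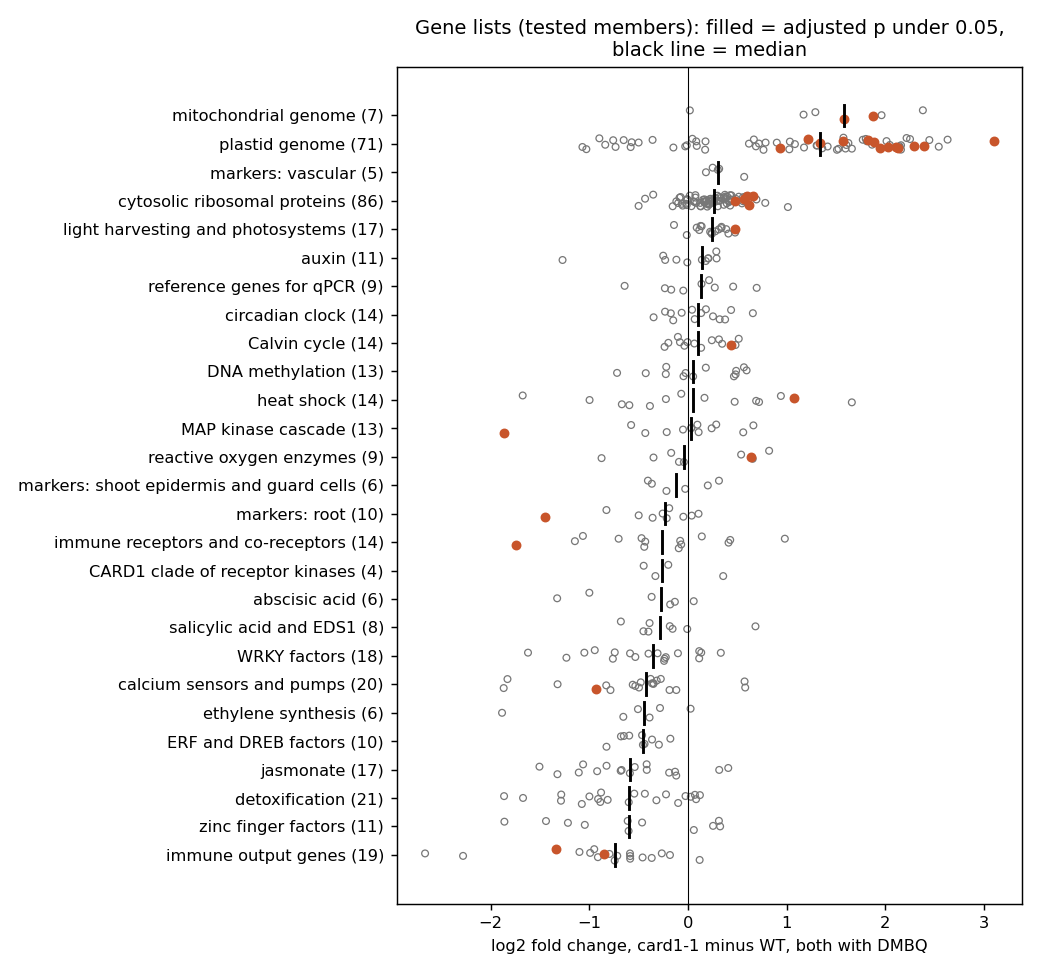
Log2 fold change of card1-1 against WT with DMBQ for each tested member of 27 gene lists (number tested in brackets), filled where the adjusted p was under 0.05, with the median as a black line. Medians run from 1.58 and 1.34 for the mitochondrial and plastid genomes to −0.74 for immune output genes, and few points in the defence lists are filled.

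Several lists with no direct role in defence had medians close to that of all genes, while those of the CARD1 clade and of vascular markers lay further from it. The median was 0.05 over 13 DNA methylation genes, 0.10 over 14 clock genes and 0.14 over 11 auxin genes, with no calls and with the sign changing in 4, 1 and 4 of 20 alternatives. It was 0.14 over 9 reference genes used in quantitative PCR, also with no calls. HSP90.1 had the 1 call among 14 heat shock genes, beside 0.295% of all genes higher (median 0.05, with the sign changing in 3 alternatives). Of the CARD1 clade of receptor kinases, 4 of 8 members were tested and none had a call (median −0.26). Markers of shoot epidermis and guard cells had a median of −0.12 over 6 genes, with the sign changing in 3 alternatives and no calls. Those of vascular tissue had a median of 0.30 over 5 genes, all 5 above 0, again with no calls. Summed over the list, the shoot markers were at 384 to 403 CPM in WT and 377 to 473 CPM in card1-1, and the vascular ones at 77.5 to 110.3 and 96.1 to 151 CPM. The 11 seed storage markers were too low to test and summed to 0 to 0.796 CPM in WT and 0 to 27.6 CPM in card1-1.

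With DMSO in place of DMBQ, no gene of 16547 tested differed between card1-1 and WT at an adjusted p under 0.05 by edgeR (1013 had an unadjusted p under 0.05, and DESeq2 called 14). The difference between genotypes with DMBQ was not the same as that with DMSO in 12 of 17315 genes (0.0693%) by a test of that interaction in 16 libraries, 10 with a lower (0.0578%) and 2 with a higher difference (0.0116%). SOBIR1 led them: with DMSO it was at 32.3, 33.4, 37.2 and 50.97 CPM in WT and 97.2, 61.2, 70.5 and 51.1 CPM in card1-1. With DMSO, therefore, each card1-1 library lay above each WT library in SOBIR1, without a call (log2 fold change 0.87, adjusted p = 0.724). The change in the difference was −2.61 (SE 0.29, adjusted p = 1.07e-05) on the log2 scale, and it includes this higher level with DMSO. MRL1 was at 180.4 ± 21.2 CPM in WT and 226 ± 41.2 in card1-1 with DMSO, a change of −1.33 (SE 0.21, adjusted p = 0.00680). FBS1 was at 14.1 ± 1.06 and 18.3 ± 8.92 CPM with DMSO, a change of −1.76 (SE 0.34, adjusted p = 0.0305), and AT4G20830 at 148 ± 24.2 and 157 ± 26.1 CPM, a change of −1.29 (SE 0.23, adjusted p = 0.0139).

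The same test passed for CAMBP25, at 60.3 ± 10.7 CPM in WT and 91.98 ± 28 in card1-1 with DMSO, with a change of −1.54 (SE 0.27, adjusted p = 0.0127). It passed for AT1G18740, −1.63 (SE 0.31, adjusted p = 0.0349), AT3G28580, −2.15 (SE 0.43, adjusted p = 0.0407), and AT1G29470, −0.93 (SE 0.19, adjusted p = 0.0445). WRKY22 and CYP707A3, an enzyme that breaks down abscisic acid, passed the interaction test without a call in the levels with DMBQ. WRKY22 was at 78.8 ± 14.6 and 123 ± 14.97 CPM with DMSO and 138 ± 31.2 and 81.3 ± 19.9 CPM with DMBQ in WT and card1-1, a change of −1.41 (SE 0.26, adjusted p = 0.0206). CYP707A3 was at 5.34 ± 1.47 and 13.5 ± 5.24 CPM with DMSO and 48.2 ± 9.49 and 19.1 ± 9.18 CPM with DMBQ, a change of −2.63 (SE 0.47, adjusted p = 0.0127). The changes of WRKY22 and CYP707A3 include a higher level in card1-1 with DMSO (log2 fold change 0.65 and 1.32), which had no call. Higher differences were found in AT3G02790, 1.37 (SE 0.28, adjusted p = 0.0407), and ATCG00150, 2.52 (SE 0.42, adjusted p = 0.0127). Beside these values, alignments not unique made up 21.3% to 29.0% of records in WT and 17.3% to 32.3% in card1-1 with DMSO, against 29.7% to 41.8% and 48.3% to 66.5% with DMBQ, and the part of this in the interaction was not tested.

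**Figure D5:**
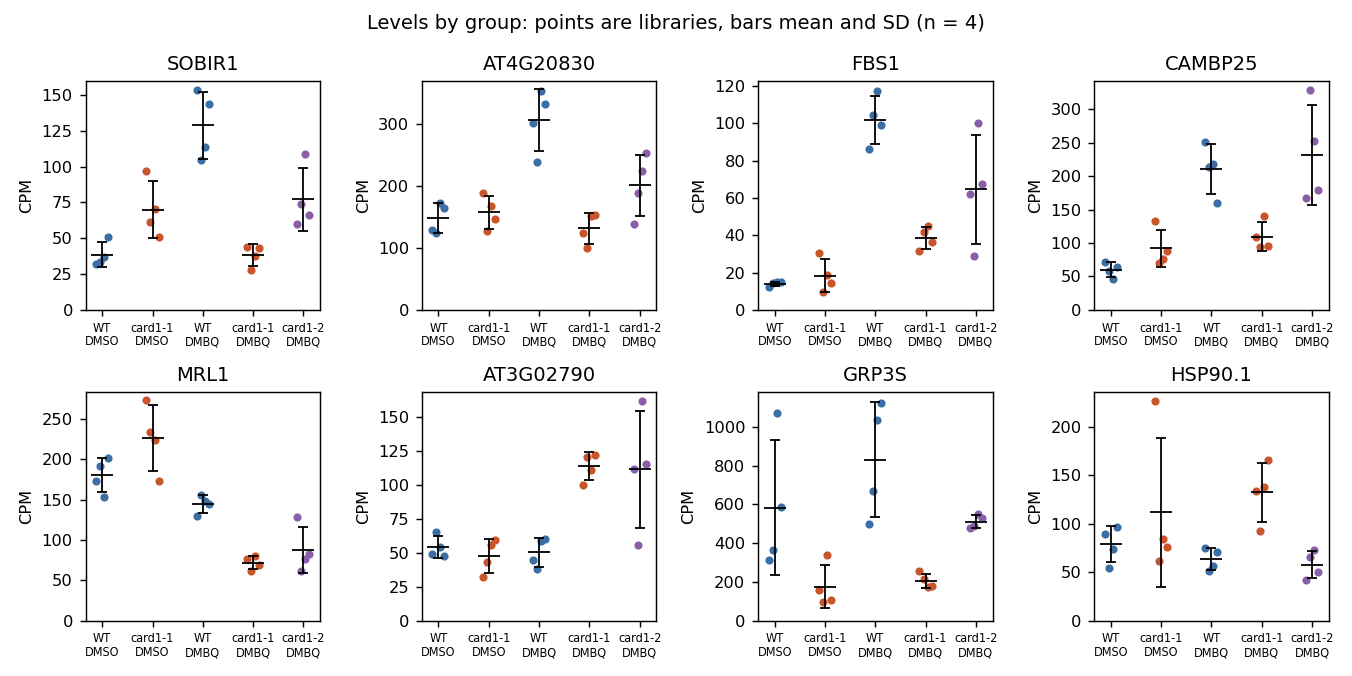
Levels (CPM) of 8 genes in WT and card1-1 with DMSO, in WT and card1-1 with DMBQ and in card1-2 with DMBQ, each library as a point, with the mean and SD of 4 libraries as bars. SOBIR1, FBS1, CAMBP25 and AT4G20830 are higher in WT with DMBQ than in the other WT and card1-1 groups, whereas the mean of GRP3S is lower in card1-1 than in WT under both treatments.

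The second allele, card1-2, was measured with DMBQ as well, and its comparison with WT shares the 4 WT libraries with that of card1-1. In card1-2, 17 of 16236 genes (0.105%) differed from WT, 13 higher (0.0801%) and 4 lower (0.0246%), and the share of alignments not unique was 31.9% to 61.1%. Most of the higher genes were plastid genes: ATCG00080, ATCG00130, ATCG00140, ATCG00150, ATCG00170, ATCG00380, ATCG00440, ATCG00510 and ATCG00540. All of these but ATCG00130 had a call in card1-1 too. The part of the share not unique in this was not tested. SOBIR1 was at 59.9, 73.8, 109 and 66.3 CPM in the card1-2 libraries, with a log2 fold change against WT of −0.73 (adjusted p = 0.155) beside −1.74 in card1-1. PEN3 was at 165, 167, 196 and 199 CPM in card1-2, and its log2 fold changes were −0.87 (adjusted p = 0.0331) in card1-2 and −0.85 in card1-1. NAP57 was at 1081, 1345, 962 and 828 CPM, with log2 fold changes of 0.99 (adjusted p = 0.0150) and 0.87. PEN3 was thus below and NAP57 above all WT libraries in both alleles, while replicate 3 of card1-2 reached the WT range for SOBIR1.

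CAMBP25 was at 232 ± 74.5 CPM in card1-2 (log2 fold change against WT 0.16, adjusted p = 0.837), AP2C1 at 38.8 ± 12.5 CPM (−0.66, adjusted p = 0.282), AT3G02840 at 14.3 ± 6.61 CPM (−1.10, adjusted p = 0.162) and MYB15 at 7.15 ± 2.76 CPM (−0.84, adjusted p = 0.555). WRKY22 was at 135 ± 22.3 CPM in card1-2 (−0.03, adjusted p = 0.970) and CYP707A3 at 33.7 ± 7.77 CPM (−0.50, adjusted p = 0.435). ATCG00140 was at 218 ± 90.2 CPM in card1-2 (2.12, adjusted p = 0.0434). Set directly against each other with DMBQ, the alleles differed in 1 of 15324 genes (0.00653%): GRP3S, at 479, 488, 549 and 528 CPM in card1-2 against 254, 213, 172 and 179 in card1-1 (log2 fold change −1.31, adjusted p = 0.00105). For the other genes named, such as CAMBP25 (−1.07, adjusted p = 0.165) and SOBIR1 (−1.0, adjusted p = 0.406), the difference between the alleles did not pass that test, which does not show that they act alike.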

How the data were processed

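RNA sequencing read counts per gene were deposited by the authors as 1 table of 24 libraries, 4 in each of 6 groups. The values the authors deposited are whole numbers of reads in every gene row, handled here as the class estimated count because 1 of 9 lines that name no gene holds fractions. The submitters' processing notes name HTSeq 0.6.1, TopHat2 2.1.1, TopHat, bcl2fastq 2.17, CASAVA and the TAIR10 build, without role or order. The sources used here do not give the annotation release, strand setting or handling of overlapping genes, so antisense and overlapping genes may share reads. Reads that fit near-identical genes equally may be missing from each of them. These 9 lines entered neither library totals nor tests. In the 8 libraries compared they include reads outside genes (1.86% to 2.39% of records), reads in more than 1 gene (0.149% to 0.332%) and alignments not unique (29.7% to 66.5%).

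Gene counts ran from 2328009 to 3567209 in the 8 libraries, which limits what can be tested in low genes; intervals cover counting error only. Genes were filtered with filterByExpr (minimum count 10, total 15), scaled by TMM and tested two-sided with the quasi-likelihood test of edgeR 4.0.16 in R 4.3.3 on the 8 libraries without a block, with Benjamini-Hochberg adjustment over 15570 genes and a threshold of 0.05. The comparisons used as context had fits of their own, and the interaction a fit of 16 libraries. The printed CPM are counts per 1e6 gene counts on 1 TMM scale over all 24 libraries, so ratios of means differ slightly from fitted fold changes. Single library values were compared by exact permutation tests. Exonic lengths, descriptions, coordinates and promoters came from RefSeq's TAIR10.1 annotation, matched by AGI code for 32835 of 33602 genes. The edgeR steps were tested on simulated data. One promoter window is not reported here.

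The members and gene lists were chosen with earlier results of these data known. Named genes were CARD1, the 12 nuclear genes with the largest log2 fold change in each direction among those with a call, at least 5 CPM and no overlap, the 2 organelle genes with the largest change by the same conditions in each direction (none qualified as lower), and up to 4 members of each list with the smallest p. Genes named beyond this rule were chosen after their values were seen. Alternatives were other scalings, filters, gene sets and fits, DESeq2 1.42.0, limma 3.58.1 voom, offsets for length and GC content, a covariate for the alignments not unique, a block and single libraries left out.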

Additional observations from a re-analysis of the deposited data

Results flagged for a closer look

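In 12 genes the difference between card1-1 and WT was not the same with DMBQ as with DMSO by edgeR's quasi-likelihood test of the interaction, and those of them covered by the rule for named genes, with WRKY22, CAMBP25 and CYP707A3 from the lists, are given here on the log2 scale. The interaction was −2.61 for SOBIR1, −2.15 for AT3G28580, −1.54 for CAMBP25, −2.63 for CYP707A3 and −1.41 for WRKY22, and it was 1.37 for AT3G02790 and 2.52 for ATCG00150.

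A single library stood apart in 3 of 62 groups of 4 libraries examined, and chance alone flags about 1 group in 20. CARD1 was at 92.8 CPM in card1-1 replicate 1 with DMBQ, beside 55.1 to 57.6 CPM in the other 3. Alignments not unique made up 41.8% in WT replicate 2 with DMBQ, beside 29.7% to 31.5% in the other 3. Mitochondrial genes took 0.210% of gene counts in the same WT library, beside 0.0772% to 0.0855% in the other 3.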

How the results depend on the processing

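The number of genes with a call, 93 in the report, was 142 in a fit to all 24 libraries, 333 by DESeq2, 195 with no filter on low counts, 55 with nuclear genes only, 34 with the share not unique as a covariate over all 24 libraries and 31 without the 2 card1-1 libraries over 55% not unique, and it ran from 31 to 149 with 1 library left out. It was 94 with DESeq2 size factors, 101 with library totals alone, 121 by limma voom, 109 with at least 30 counts in 4 libraries and 68 with offsets for length and GC content. Of the 93 genes, 19 kept their call with the covariate, where 3 reversed, and 21 kept it without the 2 libraries. Calls in the lists other than those of organelle and ribosomal genes numbered 10 in the report, 30 by DESeq2, 17 by limma voom, 19 with no filter, 5 with the covariate, 4 without the 2 libraries and 4 to 19 with 1 library left out. The difference in the share not unique was 22.6 percentage points and ran from 19.0 to 25.4 with 1 library left out, each with an exact permutation p of 0.0571, the smallest that 3 against 4 libraries allow. With the covariate, LRX1, a root hair wall protein, reversed to 0.73 (adjusted p = 0.708) and ATMG01360 to −0.38 (adjusted p = 0.821). The cause of these changes was not tested.

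The replicate numbers in the labels were checked for pairing. Same-numbered WT and card1-1 libraries deviated from their group means with correlations of 0.04, 0.13, 0.14 and 0.07. Correlations between libraries of different number ran from −0.15 to 0.098. WT replicate 1 and card1-1 replicate 4 correlated best with another number, and the other libraries with their own. Whether same-numbered libraries form pairs cannot be told from these values, and the main fit used no block. With a replicate block 270 genes had a call, 35 in the lists, and 45 in the interaction, which was 12 without it, 10 in a fit to all 24 libraries and 12 with DESeq2 size factors.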
